A study of Homo sapiens with 6 samples.

Results

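The genes described here are 10 cell surface antigens of multiple myeloma, most of them targets of antibodies or engineered T cells: SDC1, TNFRSF17, TNFRSF13B, CD38, SLAMF7, FCRL5, GPRC5D, CD27, CD48 and CD28. They were taken by symbol, each as a single row, from 33095 genes in both of the authors' deposited tables. The cells were MM.1S, an established human multiple myeloma line grown in medium with fetal bovine serum, in which lentivirus delivered a scramble control hairpin, IRF3 shRNA 1 or IRF3 shRNA 2. All 3 arms had therefore been transduced and carried a hairpin. IRF3 is a transcription factor activated by nucleic acid sensing, and the series asks what its depletion does to the transcriptome of these cells. Poly(A) RNA from 2 libraries per arm was sequenced. The labels do not tell whether both libraries of an arm were separate cultures, so the p-values reflect only how these libraries varied, and that variation may be technical. Values of single libraries were not used here: each table gives a gene's mean normalised read count over the 6 libraries, its log2 fold change over scramble with a standard error (SE), and a p-value adjusted over the table. The tables do not state the direction of the fold change. It was read as shRNA over scramble from the match of the dispersions solved from both tables and, for shRNA 1, from the lower IRF3, and every rise or fall below rests on that reading. A gene is called here at an adjusted p below 0.05.

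Malignant plasma cells keep much of the surface of the normal plasma cell, a long-lived antibody-secreting B-lineage cell. SDC1 (CD138) is a heparan sulfate proteoglycan that defines plasma cells by flow cytometry. TNFRSF17 (BCMA) and TNFRSF13B (TACI) are receptors of the cytokines APRIL and BAFF, which sustain plasma cells, and BCMA is shed from the membrane by gamma-secretase. CD38 is an ectoenzyme that consumes NAD and is the target of daratumumab. SLAMF7 and CD48 belong to the SLAM family of adhesion receptors, and SLAMF7 is the target of elotuzumab. FCRL5 is an Fc receptor-like protein that binds immunoglobulin G, GPRC5D is an orphan receptor with 7 transmembrane segments and the target of talquetamab, and CD27 and CD28 are receptors of the costimulatory ligands CD70 and of CD80 and CD86.

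The labels were checked first. On the log2 scale IRF3 was at -1.53 ± 0.10 with shRNA 1, a ratio of 0.347, and at -0.18 ± 0.10 with shRNA 2 (SE; DESeq2 adjusted p 8.45e-46 and 0.181, authors' deposited tables). No fall of the targeted mRNA was detected in the second arm, so shRNA 2 stands below for the libraries labelled shRNA 2. All 10 plasma cell markers looked up had a mean normalised read count of 1667 or more in the deposited tables. Of 10 mature B cell markers, CIITA (1886), CR2 (1020), CD79B (1013) and BACH2 (685) had a mean of 50 or more, whereas MS4A1 was at 3.82. Summed, these B cell markers were at 4589, 5185 and 4213 reconstructed reads with scramble, shRNA 1 and shRNA 2. Of those plasma cell markers, 5 were called lower and 1 higher with shRNA 1, and 7 lower and 0 higher with shRNA 2, in the authors' deposited tables. Over all genes tested, 14.8% were called lower and 9.80% higher with shRNA 1, and 18.1% and 10.9% with shRNA 2. Among genes with a mean of 1000 or more, 39.4% and 46.9% were called in either direction. IRF4, XBP1, PRDM1, JCHAIN and TXNDC5 were lower in both, FKBP11 was higher with shRNA 1, and SSR4 and DERL3 were called in neither. Their summed reconstructed level was 263296 normalised reads with scramble, 157621 with shRNA 1 and 146118 with shRNA 2, and without TXNDC5, the most abundant, it was 121715, 84697 and 78205. Like SLAMF7, TNFRSF13B, TNFRSF17 and GPRC5D, the sum was lower than scramble in both arms. From shRNA 1 to shRNA 2 the sum went down, as did TNFRSF17 and GPRC5D, whereas SLAMF7 and TNFRSF13B went up. The part of the sum in these changes was not tested. Summed markers of T cells were at 778, 739 and 666 reads in the same order of arms, most of them from TRAT1 and THEMIS. Their means were 418 and 221, beside 57.1 for CD3E and 0.336 for CD4, and CD3D was not listed. CD3E was called higher with shRNA 1 and TRAT1 lower with shRNA 2. Summed natural killer cell markers were at 57.1, 109 and 107 reads and monocyte markers at 45.1, 191 and 117 reads. Without ITGAM, the most abundant of them, the monocyte sum was at 23.5, 34.9 and 28.7 reads. ITGAM was called higher in both comparisons, at 2.85 ± 0.44 and 2.03 ± 0.44 on the log2 scale (SE).

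The antigens did not move as a block. SLAMF7, TNFRSF13B, TNFRSF17 and GPRC5D fell in both comparisons, FCRL5 rose in both, SDC1 and CD28 rose with shRNA 1, and CD38 rose in the libraries labelled shRNA 2. Among the 9 members tested with shRNA 1, 7 were called per the authors' deposited table, 3 higher and 4 lower, where 24.6% of all genes tested were called, 9.80% higher and 14.8% lower. Among the 10 tested with shRNA 2, 6 were called, 2 higher and 4 lower, where the authors' deposited table calls 29.0% of all genes, 10.9% higher and 18.1% lower. Small changes are more easily called in abundant transcripts, and 7 members had a mean of 1000 or more. Of these, 5 were called with shRNA 1 and 4 with shRNA 2, against 39.4% and 46.9% of all genes of that abundance. The median log2 fold change of the tested members was 0.07 with shRNA 1 and -0.07 with shRNA 2, beside -0.03 and 0.00 over all genes tested. CD48 and CD27 were called in neither comparison. Both comparisons share the scramble libraries, so an error in those libraries would enter both.

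**Figure D1:**
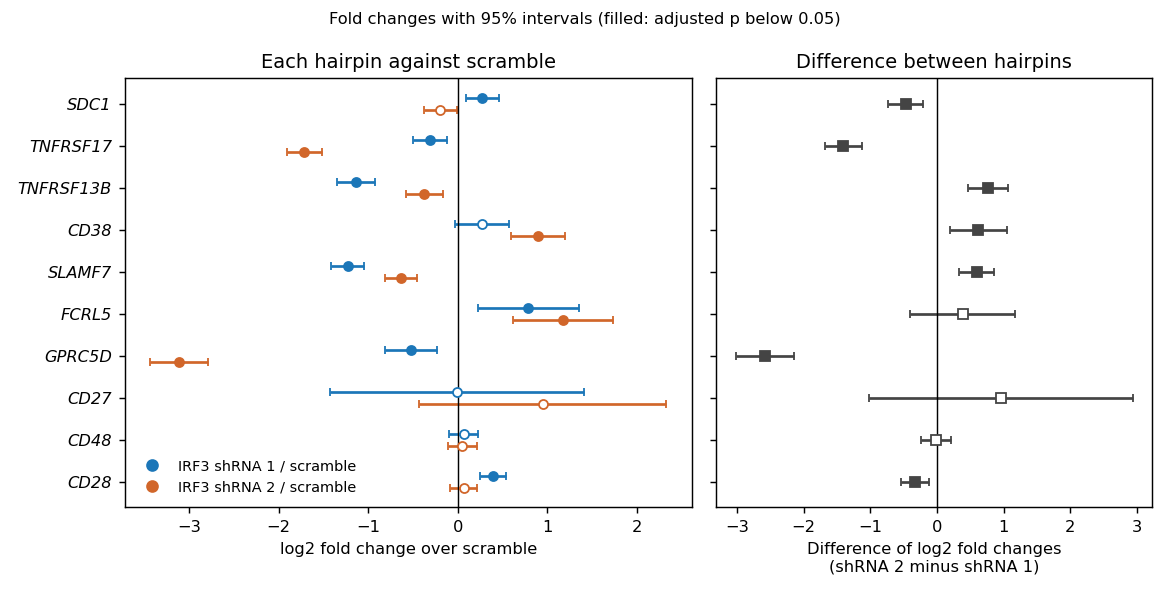
The left panel plots each member's log2 fold change over scramble with its 95% interval for both hairpins, and the right panel the difference of both values. Filled symbols have an adjusted p below 0.05; GPRC5D stands farthest left at -3.11 with shRNA 2, and FCRL5 lies to the right of 0 with both hairpins.

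GPRC5D (ENSG00000111291, chromosome 12, 12940775 to 12952147, minus strand, GRCh38) had the largest change of the 10 members with shRNA 2, whereas with shRNA 1 SLAMF7, TNFRSF13B and FCRL5 changed more. Its reconstructed mean was 1260 normalised reads with scramble, 877 with shRNA 1 and 146 with shRNA 2. A reconstructed mean is solved from the mean over all libraries and both fold changes, and its 95% interval ran from 1096 to 1450, from 760 to 1011 and from 122 to 174 reads in that order. The intervals of the 3 arms did not overlap, and the libraries labelled shRNA 2 were far below the other arms. In bulk RNA, fewer cells expressing a gene and less RNA per cell cannot be told apart. Against scramble, shRNA 1 gave a log2 fold change of -0.52 ± 0.15 (SE; DESeq2 adjusted p 0.00301, authors' deposited table). For shRNA 2 it was -3.11 ± 0.17 (SE; DESeq2 adjusted p 6.52e-76, authors' deposited table), which leaves 0.116 of the scramble level with an interval of 0.0926 to 0.145. By log2 fold change GPRC5D ranked 27 from the lowest of 17054 tested genes with shRNA 2, whereas with shRNA 1 it ranked 1704 from the lowest of 14488.

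TNFRSF17 (ENSG00000048462, chromosome 16, 11965107 to 11968068, plus strand) encodes BCMA, the receptor targeted by most cellular therapies of myeloma. Its reconstructed mean was 5145 reads with scramble, 4150 with shRNA 1 and 1567 with shRNA 2. The scramble interval, 4683 to 5652, lay above that of shRNA 1, 3776 to 4562, and both lay above that of shRNA 2, 1420 to 1729. With shRNA 1 the ratio to scramble was 0.807 (0.706 to 0.922), or -0.31 ± 0.10 on the log2 scale (SE; DESeq2 adjusted p 0.00946, authors' deposited table). The libraries labelled shRNA 2 had a ratio of 0.305 (0.266 to 0.349), or -1.71 ± 0.10 on the log2 scale (SE; DESeq2 adjusted p 8.07e-63, authors' deposited table). BCMA and GPRC5D transcripts were thus both much lower in the arm in which no fall of IRF3 was detected than in the arm in which IRF3 fell.

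TNFRSF13B and SLAMF7 had the opposite order of the hairpins. TNFRSF13B (ENSG00000240505, chromosome 17, 16929816 to 16972118, minus strand), which encodes the second APRIL receptor TACI, had a reconstructed mean of 4783 reads with scramble, 2177 with shRNA 1 and 3693 with shRNA 2. Its lowest arm was shRNA 1, where the interval of 1960 to 2418 lay apart from both others. In the shRNA 1 arm the ratio to scramble was 0.455, or -1.14 ± 0.11 on the log2 scale (SE; DESeq2 adjusted p 1.47e-23, authors' deposited table). For shRNA 2 the ratio was 0.772, or -0.37 ± 0.11 on the log2 scale (SE; DESeq2 adjusted p 0.00276, authors' deposited table). SLAMF7 (ENSG00000026751, chromosome 1, 160739057 to 160754821, plus strand), an activating receptor of natural killer cells that plasma cells also carry, had a reconstructed mean of 10514 reads with scramble, 4486 with shRNA 1 and 6775 with shRNA 2. No 2 of its 3 intervals overlapped. Its ratio to scramble was 0.427 with shRNA 1, or -1.23 ± 0.09 on the log2 scale (SE; DESeq2 adjusted p 1.93e-36, authors' deposited table). With shRNA 2 the ratio was 0.644, or -0.63 ± 0.09 on the log2 scale (SE; DESeq2 adjusted p 2.84e-10, authors' deposited table). Among the 9 members tested with shRNA 1, SLAMF7 had the lowest fold change, at rank 184 from the lowest of 14488 genes.

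FCRL5 (ENSG00000143297, chromosome 1, 157513377 to 157552520, minus strand) was the 1 member that rose with both hairpins, from a low level. Its reconstructed mean was 90.7 reads with scramble, 157 with shRNA 1 and 205 with shRNA 2. The scramble interval reached 120 and that of shRNA 1 began just below it, at 119.96, so that these intervals touched, whereas that of shRNA 2 began at 158. Its log2 fold changes were 0.79 ± 0.29 and 1.17 ± 0.28 with shRNA 1 and shRNA 2 (SE; DESeq2 adjusted p 0.0280 and 0.000245, authors' deposited tables). When p-values were adjusted over all genes with no filter on low ones, the adjusted p with shRNA 1 became 0.0634 and that call was lost. CD38 (ENSG00000004468, chromosome 4, 15778275 to 15853230, plus strand) had a reconstructed mean of 1229 reads with scramble, 1484 with shRNA 1 and 2283 with shRNA 2. The arms with scramble and shRNA 1 overlapped in their intervals, and the libraries labelled shRNA 2 lay above both. On the log2 scale CD38 was at 0.27 ± 0.15 with shRNA 1 and not called (SE; DESeq2 adjusted p 0.210, authors' deposited table). With shRNA 2 its ratio was 1.86 (1.51 to 2.29), or 0.89 ± 0.15 on the log2 scale (SE; DESeq2 adjusted p 7.87e-08, authors' deposited table).

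SDC1 and CD28 were the abundant members with small rises. SDC1 (ENSG00000115884, chromosome 2, 20200797 to 20225433, minus strand) had a reconstructed mean of 24500 reads with scramble, 29654 with shRNA 1 and 21396 with shRNA 2. The scramble interval overlapped with that of shRNA 2, and the upper bound with scramble, 26807, lay just under the lower bound with shRNA 1, 27104. Relative to scramble this was a ratio of 1.21 (1.07 to 1.37) with shRNA 1 and of 0.873 (0.769 to 0.992) with shRNA 2, the first called and the second not (DESeq2 adjusted p 0.0172 and 0.107, authors' deposited tables). CD28 (ENSG00000178562, chromosome 2, 203706475 to 203738912, plus strand), through which myeloma cells can receive survival signals, had a reconstructed mean of 7339 reads with scramble, 9637 with shRNA 1 and 7685 with shRNA 2. Only the shRNA 1 arm stood apart. On the log2 scale CD28 was at 0.39 ± 0.08 with shRNA 1 and 0.07 ± 0.08 with shRNA 2 (SE; DESeq2 adjusted p 5.01e-06 and 0.602, authors' deposited tables).

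CD48 (ENSG00000117091, chromosome 1, 160678746 to 160711851, minus strand), a lipid-anchored SLAM family protein and ligand of CD244, had near equal reconstructed means of 4604, 4818 and 4758 reads with scramble, shRNA 1 and shRNA 2. The 95% interval of its ratio to scramble was 0.936 to 1.17 with shRNA 1 and 0.924 to 1.16 with shRNA 2, from the authors' deposited tables, so changes beyond these bounds were outside the intervals. CD27 (ENSG00000139193, chromosome 12, 6444867 to 6451718, plus strand), a memory B and plasma cell receptor often lost in myeloma, was close to the floor of the data with a mean of 22.4 reads. Its reconstructed means were 17.1, 17.0 and 33.0 reads, with intervals that overlapped in all 3 arms. It had no adjusted p with shRNA 1 and 0.357 with shRNA 2 in the authors' deposited tables, and its ratio with shRNA 2 could lie anywhere from 0.740 to 5.02. A change in CD27 was not detectable at this depth.

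**Figure D2:**
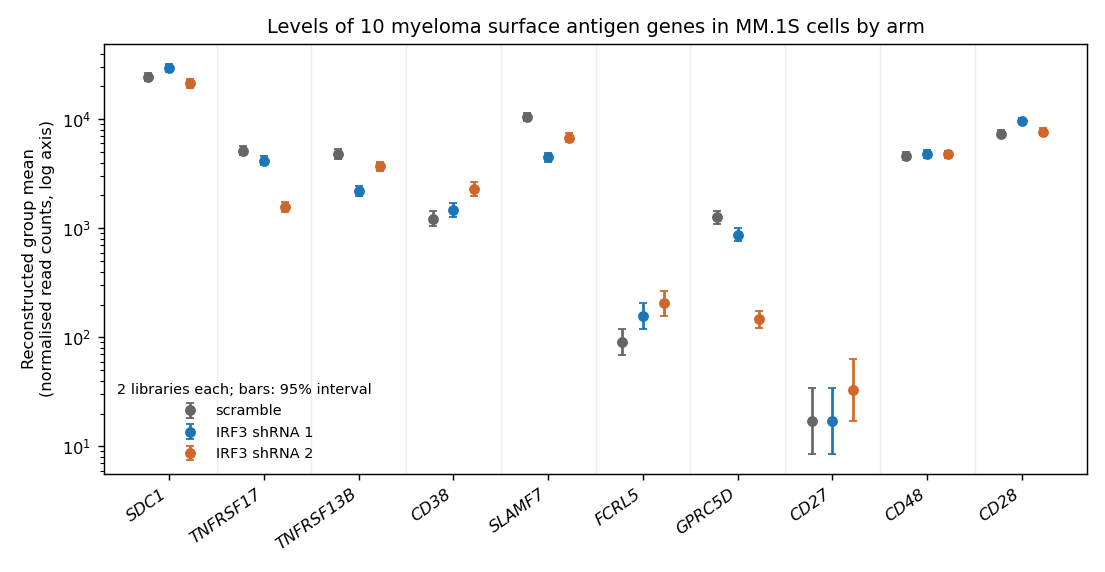
Points are the reconstructed group means in normalised read counts on a log axis, 1 per arm of 2 libraries, and bars their 95% intervals, for the 10 members. The shRNA 2 point of GPRC5D (146 reads) and of TNFRSF17 (1567) and the shRNA 1 point of SLAMF7 (4486) and TNFRSF13B (2177) lie below the other arms, while the 3 points of CD48 lie together.

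Between genes, levels were compared as reconstructed reads per kilobase of the longest annotated transcript. With scramble the order from the highest was SDC1 (7445 reads per kilobase), TNFRSF17 (5176), SLAMF7 (2968), CD48 (2568), TNFRSF13B (2418), CD28 (1525), GPRC5D (1214), CD38 (217), FCRL5 (16.8) and CD27 (12.8). Neighbours whose intervals overlapped were SLAMF7 with CD48, CD48 with TNFRSF13B, and FCRL5 with CD27. With shRNA 1, SLAMF7 (1267 reads per kilobase) and TNFRSF13B (1101) stood below CD48 (2687) and CD28 (2003), and overlapped with each other in their intervals. In the libraries labelled shRNA 2, TNFRSF17 stood at 1577 reads per kilobase, in sixth place after SDC1, CD48, SLAMF7, TNFRSF13B and CD28, and SLAMF7, TNFRSF13B, CD28 and TNFRSF17 each overlapped with the next in this order. There GPRC5D (141 reads per kilobase) stood below CD38 (403), the reverse of the order with scramble. SDC1 was first and FCRL5 and CD27 last in every arm. The length matters to these orders: with the median transcript length, TNFRSF13B changed places with CD48 with scramble and with SLAMF7 with shRNA 2, where TNFRSF17 also changed places with CD28, and with scramble CD38 went from 217 to 788 reads per kilobase, SDC1 from 7445 to 22591, TNFRSF13B from 2418 to 3778, TNFRSF17 from 5176 to 7701 and FCRL5 from 16.8 to 25.5.

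The difference between the hairpins was tested directly, as the shRNA 2 minus the shRNA 1 log2 fold change divided by the combined SE (z test, two-sided). Of 9 members tested, 7 differed at an adjusted p below 0.05, 3 of them higher and 4 lower with shRNA 2, where 24.0% of all genes tested differed (10.1% higher, 13.8% lower) and 38.6% of those with a mean of 1000 or more. GPRC5D differed most, by -2.59 ± 0.22 (SE), so that the libraries labelled shRNA 2 held 0.167 of the shRNA 1 level. TNFRSF17 differed by -1.41 ± 0.14 (SE), SDC1 by -0.47 ± 0.13 (SE) and CD28 by -0.33 ± 0.11 (SE). On the other side, TNFRSF13B differed by 0.76 ± 0.15 (SE), CD38 by 0.62 ± 0.22 (SE) and SLAMF7 by 0.59 ± 0.13 (SE). The 2 APRIL receptors were therefore unequally lowered, BCMA more in the libraries labelled shRNA 2 and TACI more with shRNA 1. FCRL5 differed by 0.39 with an interval of -0.40 to 1.18, and CD48 by -0.02 with an interval of -0.25 to 0.21. The scramble libraries enter both fold changes, which makes these SEs larger than needed.

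**Figure D3:**
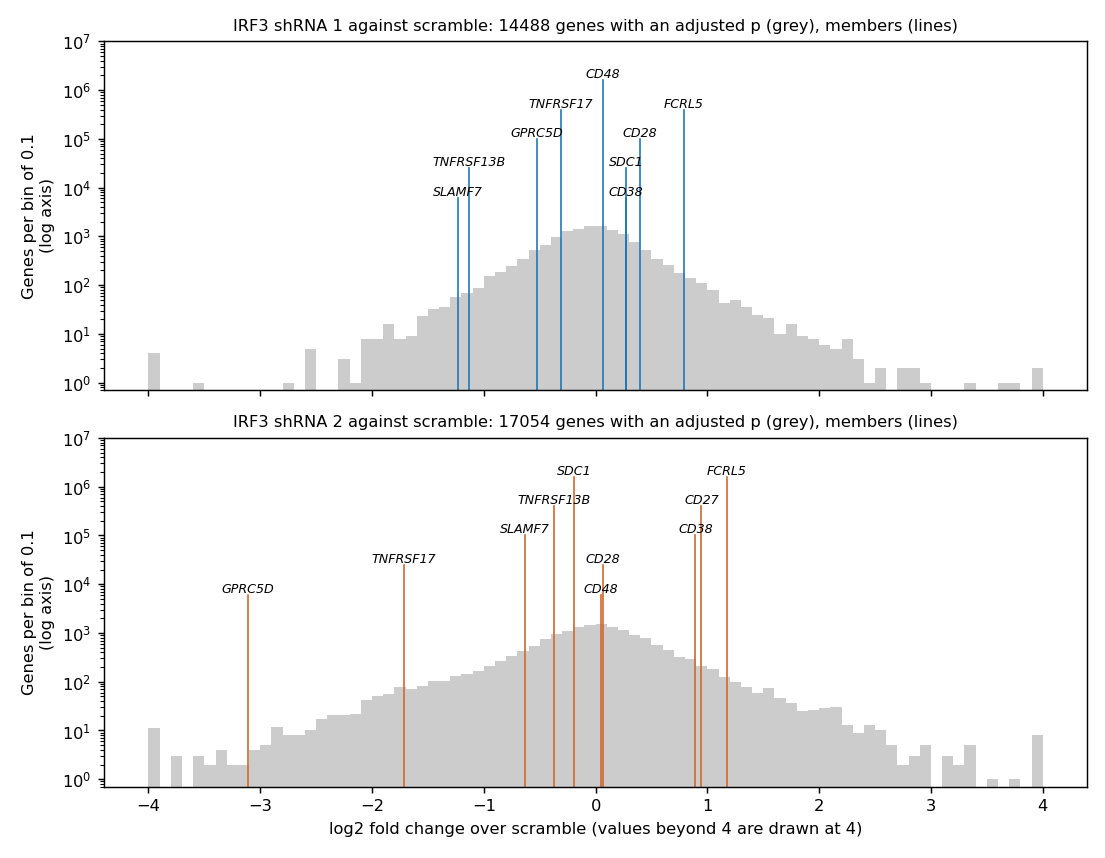
Grey bars count all genes with an adjusted p by log2 fold change over scramble in bins of 0.1, on a log axis, for each comparison, and coloured lines mark the members. With shRNA 2, GPRC5D (-3.11) lies in the thin left tail and TNFRSF17 (-1.71) in the left shoulder, while CD48 and CD28 lie at the centre.

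Promoters were read from RefSeq (GRCh38.p14) for 8 of the 10 members, 9 starts in all because SDC1 has 2, as 250 bases before to 50 after each start. TNFRSF17 and SLAMF7, which fell in both comparisons, had no promoter entry, so the motif counts below do not cover them. Stretches of 4 of them are shown: the promoter of GPRC5D, the member with the largest fall with shRNA 2, that of TNFRSF13B, which fell in both comparisons, and the sites of CD38 and CD28, which hold a composite ETS-IRF element. Capitals mark motif matches, and each sequence runs 5′ to 3′ on the strand of its gene.
GPRC5D, chr12:12952171-12952420, minus strand: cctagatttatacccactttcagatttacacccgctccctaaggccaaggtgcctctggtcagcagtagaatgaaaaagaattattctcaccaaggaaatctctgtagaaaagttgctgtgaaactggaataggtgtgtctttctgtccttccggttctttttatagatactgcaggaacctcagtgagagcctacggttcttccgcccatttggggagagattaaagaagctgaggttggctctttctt
TNFRSF13B, chr17:16972119-16972368, minus strand: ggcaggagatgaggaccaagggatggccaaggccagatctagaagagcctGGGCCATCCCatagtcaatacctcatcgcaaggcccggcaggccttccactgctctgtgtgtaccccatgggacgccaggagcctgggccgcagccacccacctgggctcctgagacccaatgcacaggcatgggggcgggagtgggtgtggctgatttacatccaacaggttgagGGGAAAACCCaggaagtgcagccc
CD38, chr4:15778275-15778304, plus strand: gttgggggtgGGAAGGGAAAcagagaaaag
CD28, chr2:203706615-203706644, plus strand: caggtgcgtcTTTCAGTTCCcctcacactt

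Motifs were searched on both strands. The IRF element, GAAA repeated with any 2 bases between, occurred in 0 of the 9 member promoters and in 3.57% of 35116 promoters. The ETS-IRF composite, GGAA and GAAA with any 2 bases between, is the kind of site that IRF4 binds with an ETS partner. It occurred in 2 of 9, those of CD38 and CD28, and in 2.82% of all promoters. The RefSeq starts used here can differ from the GENCODE gene bounds given above. Both composite matches lie inside those bounds of their genes, and the window of CD27 lies wholly before its bounds. A kappaB site, GGGA and CC with any 4 bases between, occurred in 3 of 9 (TNFRSF13B, in capitals above, FCRL5 and the second start of SDC1) and in 25.6% of all. The E-box CACGTG, the unfolded protein response core GACGTG and the octamer ATGCAAAT occurred in 0 of 9, beside 7.26%, 7.81% and 1.77% of all promoters, and the KLF box CACCC, not capitalised, in 7 of 9 beside 59.9%. A match describes these letters in this window and shows no binding.

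Several members overlap other annotated genes, and the sources used here do not say whether counting used strand. TNFRSF13B shares 615 exonic bases, 17.3% of its own, with the pseudogene TBC1D27P on the same strand. TBC1D27P had a mean of 5104 reads. On the log2 scale it was at 0.16 ± 0.09 with shRNA 1, not called, and at 0.32 ± 0.09 with shRNA 2, called (SE, authors' deposited tables). CD48 shares 976 exonic bases, 29.8% of its own, with the opposite-strand transcript AL121985.1, which had a mean of 257 reads. On the log2 scale AL121985.1 was at 0.51 ± 0.24 with shRNA 1, not called, and at 0.74 ± 0.24 with shRNA 2, called (SE, authors' deposited tables). CD27 shares 522 exonic bases with CD27-AS1, which lies on the opposite strand and had a mean of 358 reads, well above CD27 itself. CD27-AS1 was at 0.33 ± 0.19 with shRNA 1, not called, and at 0.49 ± 0.19 with shRNA 2, called (SE, authors' deposited tables). CD27 also shares 29 exonic bases with TAPBPL on the same strand, which had a mean of 1281 reads. TAPBPL was at 0.68 ± 0.11 with shRNA 1, called, and at 0.18 ± 0.12 with shRNA 2, not called (SE, authors' deposited tables). GPRC5D-AS1 lies on the opposite strand of GPRC5D and shares no exonic base with it. At a mean of only 27.9 reads, GPRC5D-AS1 was at -1.41 ± 0.63 with shRNA 1 and -2.56 ± 0.67 with shRNA 2 on the log2 scale (SE; DESeq2 adjusted p 0.0885 and 0.000759, authors' deposited tables).

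For each member called in both comparisons, the 3 genes with the nearest pair of log2 fold changes over the 3 arms were looked up, as a description of likeness. For GPRC5D they were MAL2 (-0.60 with shRNA 1 and -3.25 with shRNA 2), E2F2 (-0.55 and -2.84) and CHAF1B (-0.37 and -2.85) in the authors' deposited tables. For TNFRSF17 they were RFC3 (-0.31 and -1.72), RECQL4 (-0.30 and -1.72) and ACSL4 (-0.30 and -1.74), per the deposited tables. Unlike TNFRSF17, these genes were called with shRNA 2 only. TNFRSF13B lay nearest PPARGC1A, SRPK1 and TMED5, SLAMF7 nearest TEC, OTUD7B and JADE3, and FCRL5 nearest APOBEC3H, MIR34AHG and ZNF236-DT, each within 0.09 log2 units. Of these, PPARGC1A and JADE3 were not called with shRNA 2, and ZNF236-DT was called in neither comparison.

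The surroundings of the antigens were described by 11 further gene lists, without the members. The counts of every list below stand beside these shares of all genes tested: 9.80% higher and 14.8% lower with shRNA 1, 10.9% and 18.1% with shRNA 2. The medians over all genes tested were -0.03 and 0.00. Several lists lay near these shares, and no list was tested against them. Among ligands and counter-receptors, 2 of 8 tested genes rose and 2 fell with shRNA 1, against 4 of 9 up and 1 down with shRNA 2, with medians of 0.26 and 0.48. CD70, the ligand of CD27, rose in both at 0.65 ± 0.18 and 0.48 ± 0.18 (SE), and CD86, a ligand of CD28, at 0.82 ± 0.13 and 0.42 ± 0.14 (SE) in the authors' deposited tables. PECAM1, which binds CD38, fell in both at -2.55 ± 0.26 and -1.92 ± 0.25 (SE) in those deposited tables. ICOSLG, a ligand of the CD28 relative ICOS, was at 0.17 ± 0.12 and 0.57 ± 0.11 (SE), called with shRNA 2 in the authors' deposited table. The APRIL and BAFF genes, TNFSF13 and TNFSF13B, are given as ligands of TNFRSF17 and TNFRSF13B and were chosen after their values were seen. TNFSF13 was at 0.23 ± 0.19 and 0.25 ± 0.19 (SE) and was called in neither deposited table. TNFSF13B had a mean of only 27.1 reads.

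Other members of the TNF receptor superfamily were higher in 6 of 13 and lower in 2 with shRNA 1, and higher in 5 of 17 and lower in 2 with shRNA 2, with medians of 0.30 and 0.35. The death receptors FAS (0.80 ± 0.16 and 0.81 ± 0.16, SE) and TNFRSF10B (0.81 ± 0.11 and 1.02 ± 0.11, SE) rose in both of the authors' deposited tables. TNFRSF10A, the other death receptor of TRAIL, was chosen after its values were seen: it fell with shRNA 1 at -0.57 ± 0.12 (SE) and was at 0.09 ± 0.12 (SE), not called, with shRNA 2 in the deposited tables. The decoy receptor TNFRSF10D also rose, at 0.92 ± 0.17 and 0.51 ± 0.17 (SE), and TNFRSF21 fell at -0.78 ± 0.24 and -1.40 ± 0.25 (SE) in the deposited tables. Of 21 adaptor and NF-kappaB genes downstream of these receptors, 6 rose and 2 fell with shRNA 1, against 5 up and 1 down with shRNA 2. The adaptor TRAF1 was at 0.92 ± 0.13 and 0.46 ± 0.14 (SE), the non-canonical subunit NFKB2 at 0.68 ± 0.09 and 0.26 ± 0.09 (SE) and the inhibitor NFKBIA at 0.69 ± 0.14 and 0.55 ± 0.14 (SE), all called in both of the authors' deposited tables. BIRC3, a ubiquitin ligase of the pathway, was at 0.32 ± 0.10 and 0.26 ± 0.10 (SE) and was called in both deposited tables.

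In the SLAM family list, of which SLAMF7 and CD48 are left out, 3 of 11 tested genes rose and 0 fell with shRNA 1, against 3 up and 2 down with shRNA 2. LY9, another SLAM receptor, was at 0.32 ± 0.09 and 0.19 ± 0.09 (SE), called higher with shRNA 1 in the authors' deposited table while SLAMF7 fell. The inhibitory phosphatases PTPN6 (0.28 ± 0.10 and -0.52 ± 0.10, SE) and INPP5D (-0.16 ± 0.09 and 0.40 ± 0.09, SE) went opposite ways in the deposited tables, both called with shRNA 2. The kinase CSK was called in both, at 0.30 ± 0.08 and 0.25 ± 0.08 (SE) in the deposited tables. Of the Fc receptor-like genes, listed together with the Fc gamma receptor FCGR2B, 2 of 5 tested rose and 0 fell with shRNA 1. With shRNA 2, 2 of 6 were up and 2 down, FCGR2B being 1 of those down. FCGR2B, named after its values were seen, was at 0.30 ± 0.61 and -2.29 ± 0.68 (SE), at a mean of only 28.8 reads. FCRL2 rose in both, as FCRL5 did, at 1.08 ± 0.33 and 1.88 ± 0.32 (SE) in the authors' deposited tables. FCRL1 was called with shRNA 2 at 1.18 ± 0.26 (SE) and FCRL6 with shRNA 1 at 1.22 ± 0.38 (SE), while FCRLA, whose product stays inside the cell, fell with shRNA 2 at -1.55 ± 0.20 (SE) in the deposited tables. The Fc receptor-like genes named here were low, with means from 90.0 reads for FCRL6 to 489 for FCRLA.

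CD28 acts through phosphoinositide 3-kinase, GRB2 and VAV proteins. Of these signalling genes 1 of 17 rose and 7 fell with shRNA 1, against 2 of 18 up and 5 down with shRNA 2, with medians of -0.10 and -0.06. PIK3CB, a catalytic subunit, was at -1.46 ± 0.16 and -0.47 ± 0.15 (SE), the scaffold GAB2 at -0.92 ± 0.18 and -1.28 ± 0.18 (SE) and the exchange factor VAV2 at -0.82 ± 0.32 and -1.49 ± 0.33 (SE), all called in both of the authors' deposited tables. The transcription factor NFATC2 fell with shRNA 1 at -0.85 ± 0.11 (SE) and rose with shRNA 2 at 0.30 ± 0.11 (SE) in the deposited tables.

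BCMA, TACI and syndecan 1 are cleaved from the surface. Among gamma-secretase subunits, sheddases and their inhibitors, 5 of 15 tested genes rose and 1 fell with shRNA 1, against 3 up and 5 down with shRNA 2, with medians of 0.13 and -0.17. NCSTN, a gamma-secretase subunit, was at 0.18 ± 0.10 and 0.33 ± 0.10 (SE), called with shRNA 2 in the authors' deposited table. The metalloproteinases ADAM9 (0.85 ± 0.10 and -0.23 ± 0.11, SE) and ADAM8 (0.37 ± 0.09 and -0.48 ± 0.09, SE) were higher with shRNA 1, and ADAM8 was lower with shRNA 2, in the deposited tables. The inhibitor TIMP2 was called in both deposited tables, at 0.19 ± 0.08 and -0.28 ± 0.08 (SE). HPSE, the heparanase that promotes shedding of syndecan 1, the sheddase ADAM10 and the metalloproteinase MMP9 were chosen after their values were seen. HPSE was at -1.58 ± 0.22 (SE) and ADAM10 at -0.51 ± 0.10 (SE) with shRNA 2, both called lower in the authors' deposited table. With shRNA 1 they were at -0.18 ± 0.21 and -0.18 ± 0.10 (SE), neither called. MMP9 went the other way, at 1.26 ± 0.91 (SE), not called, with shRNA 1. With shRNA 2 it was at 4.16 ± 0.91 (SE), called higher, at a mean of 199 reads. Among other syndecans and enzymes of heparan sulfate, the sugar chain that SDC1 carries, 4 of 27 rose and 5 fell with shRNA 1, against 3 of 28 up and 11 down with shRNA 2, with medians of -0.09 and -0.32. XYLT1, which starts the chain, was at -0.50 ± 0.11 and -1.29 ± 0.12 (SE) and fell in both deposited tables, as did the sulfatase SULF2 at -0.49 ± 0.10 and -0.44 ± 0.10 (SE). The related sulfatase SULF1 was at 0.42 ± 0.09 and -0.47 ± 0.09 (SE), opposite calls in the deposited tables, and the sulfotransferase NDST1 rose in both at 0.34 ± 0.12 and 0.37 ± 0.12 (SE).

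Around CD38, 3 of 16 genes of NAD and adenosine metabolism rose and 1 fell with shRNA 1, against 3 of 17 up and 3 down with shRNA 2. The nicotinamide riboside kinase NMRK1 rose in both, at 0.47 ± 0.13 and 0.56 ± 0.13 (SE), and adenosine deaminase (ADA) was at 0.26 ± 0.10 and -0.38 ± 0.10 (SE), called in both of the authors' deposited tables. The NAD-dependent deacetylase SIRT1 fell with shRNA 1 at -0.63 ± 0.15 (SE) and NAPRT, of NAD synthesis, with shRNA 2 at -0.52 ± 0.14 (SE) in the deposited tables. Among 22 tested B cell and plasma cell transcription factors, 2 rose and 8 fell with shRNA 1, against 3 up and 6 down with shRNA 2, with medians of -0.18 and -0.04. IRF4 was at -1.21 ± 0.08 and -1.87 ± 0.08 (SE) and the coactivator POU2AF1 at -0.60 ± 0.08 and -0.75 ± 0.08 (SE) in the authors' deposited tables. Of the antigens, SLAMF7, TNFRSF13B, TNFRSF17 and GPRC5D were also lower in both arms. SDC1, CD28, CD38, FCRL5, CD48 and CD27 were not called lower in either. Whether these regulators bear on the antigens was not tested. KLF2, a factor of B cell homing, had opposite calls of 1.03 ± 0.16 and -3.51 ± 0.19 (SE) in the deposited tables.

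Of 42 genes listed as other surface antigens of plasma cells and myeloma, 13 of 39 tested rose and 9 fell with shRNA 1, against 9 of 41 up and 14 down with shRNA 2, with medians of 0.05 and -0.12. The list includes FCRLA, whose product stays inside the cell and which is counted among those down with shRNA 2. The hyaluronan receptor CD44 rose with shRNA 1 at 0.70 ± 0.08 (SE) and fell with shRNA 2 at -0.55 ± 0.08 (SE) in the authors' deposited tables. The cytokine receptor chain IL6ST was at -0.43 ± 0.09 and -0.92 ± 0.09 (SE) and LAMP5 at -1.05 ± 0.09 and -1.29 ± 0.09 (SE), lower in both deposited tables. NCAM1 (CD56), an antigen of many myelomas, and IL6R, the receptor of interleukin 6, were chosen after their values were seen. NCAM1 was at -1.33 ± 0.33 and -2.76 ± 0.36 (SE) and IL6R at -0.29 ± 0.09 and 0.73 ± 0.09 (SE), each called in both of the authors' deposited tables.

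**Figure D4:**
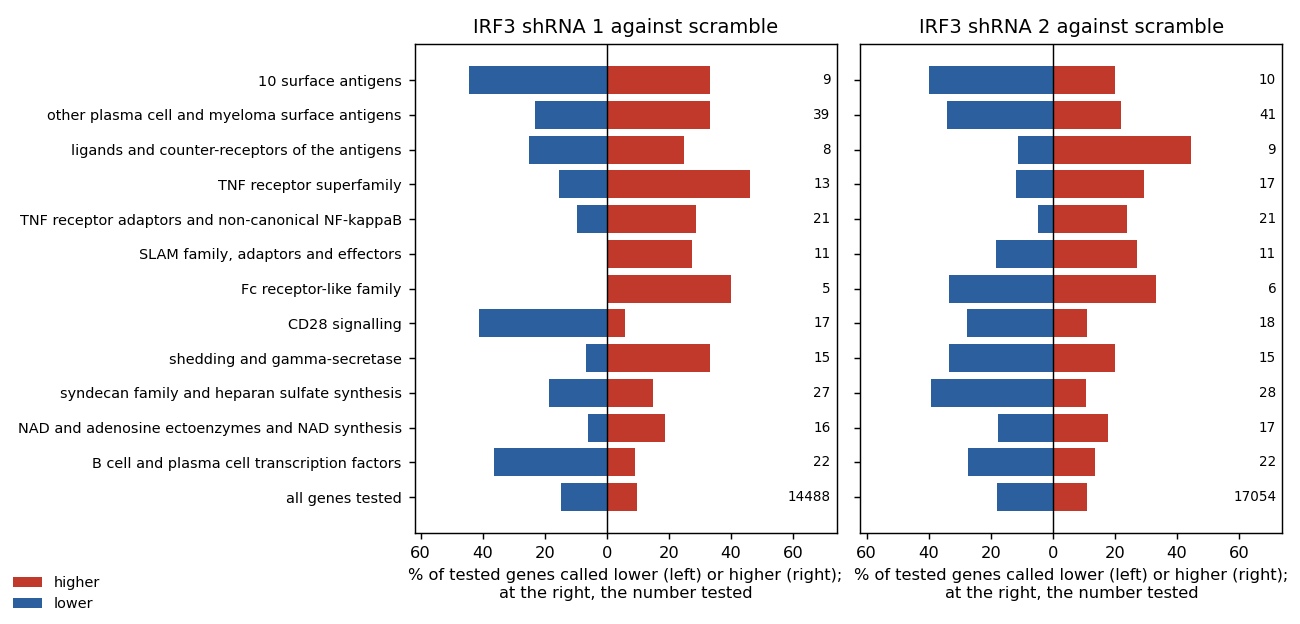
Bars give the percentage of tested genes called lower (left, blue) and higher (right, red) at an adjusted p below 0.05, for the 10 antigens, the 11 further lists and all genes tested, with the number tested at the right. The antigens show bars on both sides in both comparisons, with 4 genes lower in each and 3 and 2 higher.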

How the data were processed

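RNA sequencing of MM.1S cells in 3 arms of 2 libraries was analysed from 2 tables that the authors deposited, each shRNA against scramble. The submitters' processing notes name Salmon 0.12.0, DESeq2 1.24.0 and GRCh38 (hg38), with no settings. Per the file headers, the authors give a signal, the mean normalised read count, a log2 fold change with its SE, a Wald score, and p-values with adjusted p-values. Both tables hold the same mean for each of 33095 genes and sum to 25062897 in all; the depth of each library is unknown. The median SE of the deposited log2 fold change with shRNA 1 was 0.36 for genes with a mean of 50 to 200 and 0.11 from 1000 upwards.

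The authors' DESeq2 test was used as deposited. Group means, dispersion and 95% intervals were solved from the mean, both fold changes and both SEs, with all size factors taken as 1. Dispersions from both tables differed by a median absolute log ratio of 0.00888 with fold changes as coded (shRNA over scramble) and of 0.131 to 0.203 with signs turned, in 1590 to 1602 genes. The two-sided z test of the hairpin difference was adjusted by Benjamini-Hochberg over 14488 genes and tested on simulated data. Coordinates, exons and lengths came from GENCODE 29, which held all identifiers. Python 3.11.15, pandas 2.3.3 and scipy 1.17.1 were used.

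The members and lists were chosen with earlier results of these data known. Named genes were the members, IRF3, up to 4 genes per list, ranked by the larger of their 2 p-values, and the 3 genes nearest each member called in both; a few others are marked. Alternatives covered the threshold, a minimum fold change, the filter on low genes, recentring, the SE of the difference and the transcript length.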

Additional observations from a re-analysis of the deposited data

Results flagged for a closer look

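For 7 members the effect of the hairpins against the same scramble libraries differed between shRNA 1 and shRNA 2 by a direct test of the difference (z test, Benjamini-Hochberg over 14488 genes). GPRC5D differed by -2.59 on the log2 scale, shRNA 2 minus shRNA 1, with an adjusted p of 7.62e-29. TNFRSF17 differed by -1.41 (2.31e-21), SDC1 by -0.47 (0.00287) and CD28 by -0.33 (0.0146), all lower with shRNA 2. TNFRSF13B differed by 0.76 (9.67e-06), SLAMF7 by 0.59 (9.45e-05) and CD38 by 0.62 (0.0217), all higher with shRNA 2. SDC1 had log2 fold changes of opposite sign in the deposited tables. IRF3 itself was at -1.53 and -0.18 in the same tables.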

How the results depend on the processing

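No paired analysis was possible because the tables used here hold no values of single libraries, and for the same reason no replicate was left out in turn. With a minimum absolute log2 fold change of 0.5, the members called with shRNA 1 went from 7 to 4, with 1 higher in place of 3: SDC1, TNFRSF17 and CD28 lost the call. At an adjusted p below 0.01, 1 member was higher with shRNA 1, since SDC1 and FCRL5 lost the call. In both cases this follows from the stricter rule. Without the filter on low genes, FCRL5 lost its call with shRNA 1 (adjusted p of 0.0634). Counts with shRNA 2 and of differing hairpins stayed within 1.5 times under every alternative run, though TNFRSF13B with shRNA 2 fell under the minimum of 0.5, and CD38 and CD28 no longer differed at 0.01. Among values with an adjusted p, no fold change or difference of a member changed sign. CD27 with shRNA 1, at -0.01, had no adjusted p and was left out of the recentring. Recentring on the median gene among those with a mean of 50 reads or more, at -0.04 in both comparisons, changed no call. With a mean of 22.4 reads, CD27 was limited by depth. Over all genes, the minimum of 0.5 took the calls from 3571 to 2002 with shRNA 1 and from 4939 to 3191 with shRNA 2.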
